A study of Mus musculus with 12 samples.

Results

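This set of 10 genes, out of 55450 in the count table, held 7 muscle-enriched ubiquitin ligase genes and 3 FOXO transcription factor genes. They were chosen by name, from what the proteins do, with earlier results of these data known. The ligases were Fbxo32 (atrogin-1), Fbxo40, Asb2 and Fbxo30 (MUSA1), and the MuRF family of Trim63 (MuRF1), Trim55 (MuRF2) and Trim54 (MuRF3). The transcription factors were Foxo1, Foxo3 and Foxo4. RNA was taken from tibialis anterior (TA) muscle, a fast muscle of the lower leg, of wild-type mice on the 129Pas background, untreated as far as the labels say. There were 4 mice at E18.5 (embryonic day, shortly before birth), 4 at 2 weeks (wks) and 4 at 7 wks of age, with 1 library per mouse, and the study sequenced them to follow splicing through muscle growth after birth. The sex of the mice was not given. All 10 genes were found in the table, each as 1 row, and all 10 passed the filter on low counts, with 941 counts in the library where any of them was lowest (Fbxo30 at 2 wks).

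Ubiquitin ligases pick the proteins that are marked with ubiquitin and sent to the proteasome. Atrogin-1, MUSA1 and FBXO40 are F-box proteins, which bring a substrate to a complex built on SKP1 and the scaffold cullin 1, while ASB2 has a SOCS box and joins a complex on elongins B and C and cullin 5. The MuRF proteins are RING-finger ligases that need no cullin and sit at the M-band, the Z-disc and microtubules. FOXO factors are kept out of the nucleus when AKT, downstream of insulin and IGF1, phosphorylates them, and in wasting muscle nuclear FOXO switches on Fbxo32, Trim63 and Fbxo30. These genes are best known from that setting. Here they were measured in healthy muscle that was growing.

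A RefSeq table of promoter windows on GRCm38.p6, each 250 bases before to 50 bases after an annotated start, held 7 of the 10 genes, and Fbxo32, Trim55 and Foxo4 had no entry. The stretches upstream of the gene are shown for the 4 of these 7 whose mRNA rose from E18.5 to 7 wks. They run 5′ to 3′ on the gene's strand. Capitals mark E-boxes (CANNTG, bound by myogenic regulatory factors), the FOXO core site (GTAAACA, or TGTTTAC on the other strand) and the MEF2 site, each searched on both strands.
Trim63, chr4:134314870-134315119, plus strand: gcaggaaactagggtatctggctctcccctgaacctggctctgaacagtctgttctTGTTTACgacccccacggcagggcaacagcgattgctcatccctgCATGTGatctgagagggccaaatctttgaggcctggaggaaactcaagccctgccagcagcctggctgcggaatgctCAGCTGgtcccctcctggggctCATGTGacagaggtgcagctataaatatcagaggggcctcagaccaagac
Trim54, chr5:31116362-31116611, plus strand: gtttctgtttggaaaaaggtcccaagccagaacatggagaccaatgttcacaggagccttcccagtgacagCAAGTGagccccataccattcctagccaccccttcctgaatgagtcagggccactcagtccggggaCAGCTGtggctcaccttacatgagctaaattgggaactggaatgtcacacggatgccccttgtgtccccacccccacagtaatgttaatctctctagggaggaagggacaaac
Fbxo40, chr16:36990531-36990717, minus strand: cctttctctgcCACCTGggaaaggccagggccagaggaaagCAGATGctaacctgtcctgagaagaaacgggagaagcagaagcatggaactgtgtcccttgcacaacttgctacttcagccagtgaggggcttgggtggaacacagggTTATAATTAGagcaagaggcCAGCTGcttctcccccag
Asb2, chr12:103356002-103356251, minus strand: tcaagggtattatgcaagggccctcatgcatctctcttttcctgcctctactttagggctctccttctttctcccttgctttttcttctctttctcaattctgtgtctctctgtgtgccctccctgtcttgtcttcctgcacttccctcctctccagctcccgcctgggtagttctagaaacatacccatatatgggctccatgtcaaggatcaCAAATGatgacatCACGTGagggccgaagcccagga

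Over the whole 300-base windows (for Fbxo40 and Asb2, with more than 1 entry, the outermost), Trim63 was the 1 gene of the 7 with the FOXO core site, which began 194 bases before its start, and it also had 3 E-boxes. Fbxo40 had 4 E-boxes and the only MEF2 site among the 7, beginning 101 bases before the start, and 1 of its E-boxes lay within the annotated gene and is not shown. Trim54 and Asb2 had 2 E-boxes each, Foxo1 had 1, and Fbxo30 and Foxo3 had none of these motifs. The insulin response core CAAAACA was in none of the 7. Of all 32851 windows in the table, 3.65% held the FOXO core, 6.28% the CAAAACA core, 72.3% an E-box and 3.19% the MEF2 site, so most windows held an E-box. A match in letters is a description of the sequence and not evidence that a factor binds there.

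Libraries held 63018968 to 123449246 counts on genes. Muscle RNA changed in make-up with age, which bears on every scaled value: the 20 most abundant genes took 8.38 to 11.3% of counts in E18.5 mice, 32.2 to 35.3% in 2-wk mice and 36.3 to 37.7% in 7-wk mice. Levels are given as CPM (read counts scaled to a common library size) after TMM normalization, which sets libraries against the bulk of genes, with mean factors of 1.667, 0.876 and 0.687 at the 3 ages. Scaled to total counts instead, the median of all tested genes moved by -1.02 on the log2 scale in the first step (E18.5 to 2 wks) and by -0.38 in the second, against -0.09 and -0.03 with TMM. The 6 markers of skeletal muscle fibres (Ckm, Acta1, Ttn, Mylpf, Tnnt3, Neb) summed to 12634 to 21859 CPM in E18.5 mice, 112049 to 136655 CPM in 2-wk mice and 118404 to 149711 CPM in 7-wk mice, with none at 0. In whole muscle, fewer cells of a type and less RNA per cell cannot be told apart.

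**Figure D1:**
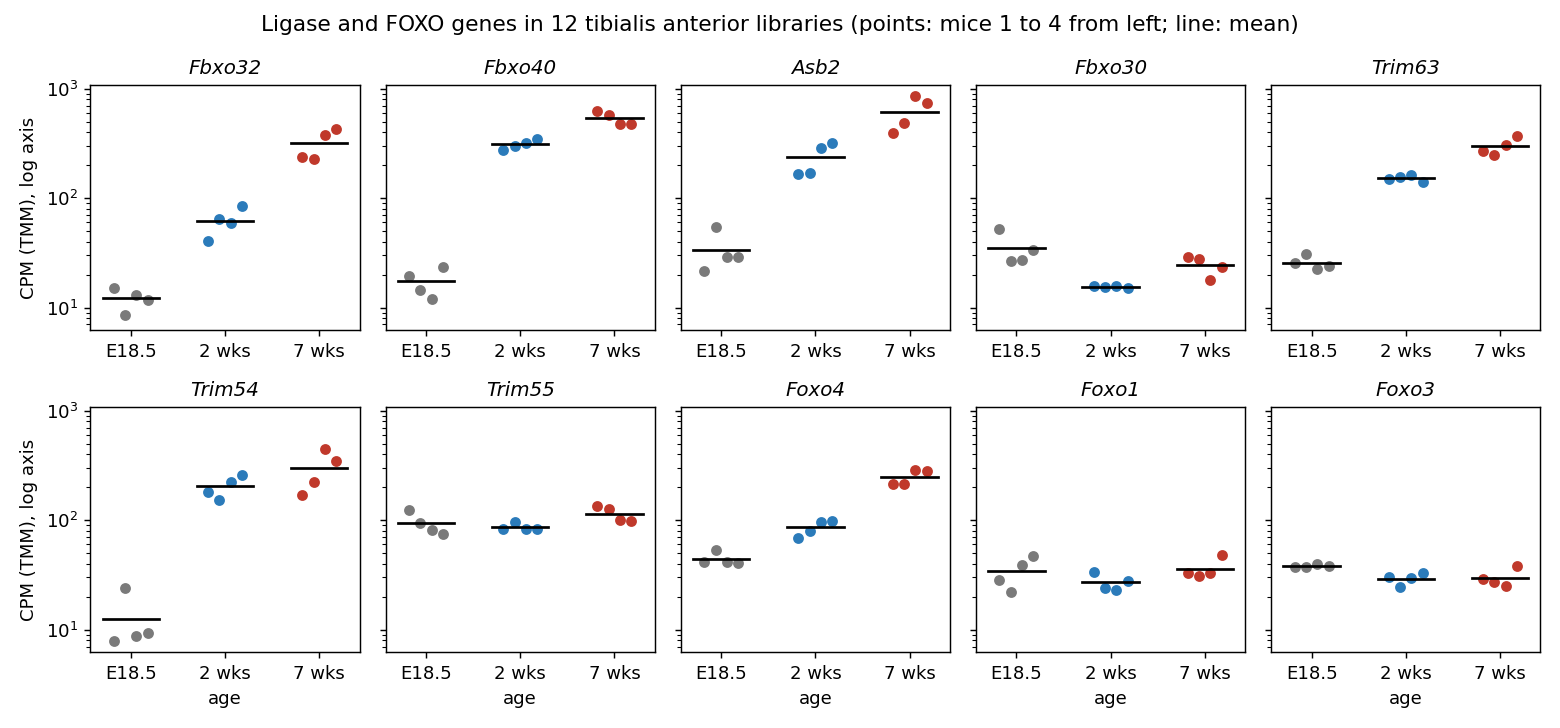
TMM-scaled CPM (log axis) of the 10 genes in each of the 12 TA libraries, with mice 1 to 4 of each age from left to right as points and the mean as a line. Fbxo32, Fbxo40, Asb2, Trim63 and Foxo4 climb at both steps without overlap between ages, Trim54 climbs to 2 wks, and Trim55, Foxo1 and Foxo3 stay within a narrow band, though with total counts all 3 fall to 2 wks. On that scale the median log2 change of all tested genes to 2 wks was -1.02.

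Fbxo32, Fbxo40, Asb2, Trim63, Trim54 and Foxo4 rose between E18.5 and 7 wks, by 5.64-fold (Foxo4) to 31.0-fold (Fbxo40) in mean TMM-scaled CPM, and Fbxo30, Trim55, Foxo1 and Foxo3 ended at 0.700 to 1.22 times their E18.5 mean. With total counts the log2 changes of the 6 were smaller, from 1.21 (Foxo4) to 3.69 (Fbxo40), and the other 4 fell, by 0.98 (Trim55) to 1.78 (Fbxo30). The median of all tested genes on that scale was -1.37. From E18.5 to 2 wks 8 of the 10 genes passed the test, 6 higher and 2 lower, in edgeR's quasi-likelihood test with a Benjamini-Hochberg adjusted p under 0.05. Of all 19276 genes tested, 65.7% passed, 31.5% higher and 34.2% lower. From 2 to 7 wks 6 of the 10 passed, all higher, against 27.5% of all genes, 13.5% higher and 13.9% lower. From E18.5 to 7 wks 8 passed, 6 higher and 2 lower (Fbxo30 and Foxo3), against 71.4% of all genes, 34.3% higher and 37.1% lower. The change of the second step differed from that of the first in 4 of the 10, more positive in 1 and more negative in 3, against 38.4% of all genes, 16.8% more positive and 21.6% more negative. The median log2 change of the 10 genes was 1.65, 0.73 and 3.02 over these comparisons, and that of all tested genes was -0.09, -0.03 and -0.09. In the test for changes beyond 2-fold, 5 of the 10 rose to 2 wks, 2 rose from 2 to 7 wks (Fbxo32 and Foxo4) and 6 rose from E18.5 to 7 wks, where 14.4%, 0.586% and 17.9% of all genes did. The CPM of the mice did not overlap between ages for 8 genes (61.3% of all genes), 7 genes (33.7%) and 6 genes (63.4%) in the same order of comparisons.

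Fbxo32, the gene of atrogin-1, whose known substrates include eIF3f and MyoD, rose at both steps. It lies on the minus strand at chr15:58175879-58214892 (GRCm38.p6). Its level was 15.0, 8.63, 13.1 and 11.7 CPM in mice 1 to 4 at E18.5, 40.7, 64.6, 58.9 and 83.8 CPM at 2 wks, and 238, 226, 374 and 428 CPM at 7 wks. No mouse of an age overlapped with the next age, and at 7 wks mice 3 and 4 were the higher pair. In edgeR the log2 change was 2.36 (SE 0.27, adjusted p = 6.58e-06) to 2 wks and 2.35 (SE 0.27, adjusted p = 6.69e-05) from 2 to 7 wks. The difference of the steps was -0.0045 (SE 0.44, adjusted p = 0.996).

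Fbxo40, which encodes a muscle F-box protein that targets the insulin receptor substrate IRS1, rose at both steps on the TMM scale. It lies on the minus strand at chr16:36963461-36990530. Its level was 19.5, 14.5, 11.8 and 23.4 CPM at E18.5, 276, 296, 320 and 345 CPM at 2 wks, and 624, 577, 472 and 472 CPM at 7 wks. The ages did not overlap, and at 7 wks mice 3 and 4 were the lower pair, opposite to Fbxo32. The log2 change was 4.16 (SE 0.23, edgeR adjusted p = 1.26e-08) to 2 wks and 0.80 (SE 0.20, edgeR adjusted p = 0.0103) from 2 to 7 wks. The later step minus the earlier step was -3.36 (SE 0.33, edgeR adjusted p = 1.20e-05). With total-count scaling the later step was 0.45 (edgeR adjusted p = 0.0745).

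Asb2, the substrate-binding part of a cullin-5 ligase for filamins, lies on the minus strand at chr12:103321142-103356001. It stood at 21.5, 54.6, 29.2 and 29.2 CPM at E18.5, 165, 171, 287 and 318 CPM at 2 wks, and 390, 485, 854 and 735 CPM at 7 wks. At E18.5 mouse 2 was the highest, and at both later ages mice 3 and 4 were the higher pair, yet no ages overlapped. The log2 change was 2.81 (SE 0.35, edgeR adjusted p = 1.22e-05) to 2 wks and 1.39 (SE 0.33, edgeR adjusted p = 0.00751) afterwards. The difference of the steps was -1.42 (SE 0.55, edgeR adjusted p = 0.0549), which crossed the threshold when E18.5 mouse 2, 2-wk mouse 1 or 7-wk mouse 3 was left out (range -1.76 to -1.07 over the 12 left-out libraries). It also passed with the replicate number as a block (-1.42, edgeR adjusted p = 0.0348) and in DESeq2 (-1.37, adjusted p = 0.0449).

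Fbxo30, whose protein MUSA1 is known as a ligase of denervated muscle, went the other way. It lies on the plus strand at chr10:11281330-11305750. Its level was 52.4, 26.8, 26.9 and 33.6 CPM at E18.5, 15.8, 15.2, 15.7 and 15.2 CPM at 2 wks, and 29.2, 27.6, 17.9 and 23.2 CPM at 7 wks. All 2-wk mice lay below all others, whereas E18.5 and 7 wks overlapped. It fell by 1.17 on the log2 scale to 2 wks (SE 0.21, edgeR adjusted p = 0.000302) and by 2.09 with total-count scaling. The rise of 0.66 from 2 to 7 wks (SE 0.21, edgeR adjusted p = 0.0342) lost its call in 7 of the 12 fits with 1 library left out, for each 2-wk mouse and for 7-wk mice 1, 2 and 4 (0.57 to 0.78 over the 12), and with total-count scaling (0.31). The steps differed by 1.83 (SE 0.38, edgeR adjusted p = 0.00274). Over both steps it fell by 0.51 (SE 0.21, edgeR adjusted p = 0.0425), a call that was lost without E18.5 mouse 1 or 4, any 2-wk mouse, or 7-wk mouse 3 or 4 (range -0.62 to -0.25).

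Within the F-box ligases the ratios of 1 gene to another in the same library do not depend on scaling between libraries. The log2 ratio of Fbxo32 to Fbxo30, per length of exons, was -1.95 ± 0.33 (SD, n = 4) in E18.5 mice, 1.51 ± 0.46 in 2-wk mice and 3.22 ± 0.73 in 7-wk mice. The ages did not overlap, and each step gave p = 0.029 in an exact two-sided permutation test, the smallest p that 4 against 4 allows (adjusted p = 0.0429 over 24 ratio tests). The ratio of Fbxo32 to Fbxo40 reversed its course, from -0.998 ± 0.495 (E18.5) to -2.86 ± 0.31 (2 wks) and back to -1.31 ± 0.66 (7 wks). E18.5 and 7 wks differed by -0.31 (exact permutation p = 0.514), while each single step had an adjusted p of 0.0429 in the exact permutation test.

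The MuRF family changed in make-up. Trim63, at chr4:134315120-134329629 on the plus strand, encodes the MuRF member that marks myosin and other thick filament proteins in wasting. It had 25.5, 30.6, 22.6 and 23.8 CPM at E18.5, 149, 156, 164 and 141 CPM at 2 wks, and 270, 245, 305 and 367 CPM at 7 wks. The ages did not overlap. The log2 change was 2.58 (SE 0.16, edgeR adjusted p = 4.64e-08) to 2 wks and 0.96 (SE 0.15, edgeR adjusted p = 0.000722) after it, and the later step minus the earlier was -1.62 (SE 0.26, edgeR adjusted p = 0.000523).

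Trim54, whose protein binds microtubules and the Z-disc, lies on the plus strand at chr5:31116612-31137626. Its level was 7.85, 23.8, 8.80 and 9.40 CPM at E18.5, 180, 152, 222 and 256 CPM at 2 wks, and 169, 225, 449 and 349 CPM at 7 wks. E18.5 mouse 2 stood above the other 3 of its age, and 2 and 7 wks overlapped. It rose by 4.02 (log2, SE 0.41, edgeR adjusted p = 2.59e-06) to 2 wks and by 4.55 without E18.5 mouse 2, and from 2 to 7 wks the change was 0.56 (SE 0.36, edgeR adjusted p = 0.276). The steps differed by -3.47 (SE 0.61, edgeR adjusted p = 0.000939). Exons of Trim54 overlap those of Mpv17 on the opposite strand, with medians of 12586 and 1778 counts per library. The strand setting of the counting is not given in the sources used here, so reads of the shared bases cannot be assigned.

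Trim55, at chr3:19644344-19692584 on the plus strand, encodes the MuRF member that in early muscle links titin to microtubules. It had 124, 94.8, 81.6 and 74.9 CPM at E18.5, 82.1, 96.5, 83.2 and 82.8 CPM at 2 wks, and 134, 126, 100.1 and 98.1 CPM at 7 wks. E18.5 overlapped with both later ages, while every 7-wk mouse lay above every 2-wk mouse. The changes of -0.12 to 2 wks (SE 0.17, edgeR adjusted p = 0.538), 0.41 from 2 to 7 wks (SE 0.17, edgeR adjusted p = 0.0895) and 0.29 from E18.5 to 7 wks (SE 0.17, edgeR adjusted p = 0.146) did not pass the test. This rests on the scaling: with total counts Trim55 fell by 1.05 to 2 wks (edgeR adjusted p = 0.000115), close to the median of all genes under that scaling, and with the trend over GC content removed it was 0.29 to 2 wks (edgeR adjusted p = 0.0689). From E18.5 to 7 wks it rose by 0.44 with the GC trend removed (SE 0.13, edgeR adjusted p = 0.00843) and by 0.45 without E18.5 mouse 1 (edgeR adjusted p = 0.0159), but fell by 0.98 with total counts (edgeR adjusted p = 0.000155). The median of all tested genes was -1.37 on the total-count scale. The rise of Trim55 from 2 to 7 wks passed without E18.5 mouse 1 (range 0.33 to 0.48 over the 12 left-out libraries).

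Shares of the family's summed level per length (RPKM) depend on the length taken for each gene, here that of its united exons. This was 3268 bases for Trim63 and 10340 for Trim55, against 1945 and 8219 in their longest transcripts. So which of these 2 genes leads at E18.5 is not settled by the shares. Trim55 held 47.5% ± 6.91 (SD, n = 4) in E18.5 mice, 9.26% ± 1.34 in 2-wk mice and 7.63% ± 2.76 in 7-wk mice. Trim54 went from 11.1% ± 5.09 to 39.0% ± 6.18 and 32.9% ± 8.14, and Trim63 from 41.3% ± 3.44 to 51.8% ± 5.05 and 59.5% ± 6.12. The log2 ratio of Trim55 to Trim54 dropped by 4.26 to 2 wks, with all 16 pairs of mice in that direction (exact permutation p = 0.029, adjusted p = 0.0429), and moved by -0.08 afterwards (exact permutation p = 0.886). The ratio of Trim63 to Trim55 rose by 2.68 to 2 wks (exact permutation p = 0.029, adjusted p = 0.0429) and differed by 0.54 between 2 and 7 wks (exact permutation p = 0.0571, adjusted p = 0.0762). Between Fbxo32 and Trim63, the genes most often measured together in wasting muscle, the log2 ratio differed by -0.25 between E18.5 and 2 wks (exact permutation p = 0.486). In the second step that ratio rose by 1.40, in 16 of 16 pairs (exact permutation p = 0.029, adjusted p = 0.0429).

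**Figure D2:**
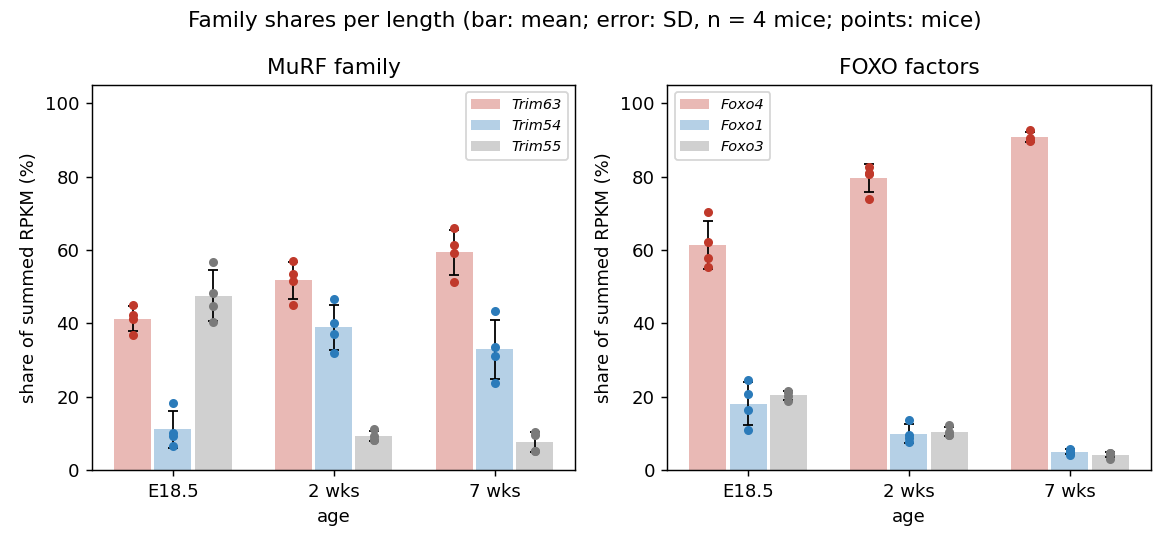
Share of the summed RPKM (united exons) of the MuRF family (left) and of Foxo1, Foxo3 and Foxo4 (right) taken by each gene in E18.5, 2-wk and 7-wk mice. Bars give the mean, error bars the SD of 4 mice and points the mice. Trim55 drops from 47.5% to 9.26% at 2 wks. Foxo4 goes from 61.4% at E18.5 to 90.8% at 7 wks of a sum that leaves out Foxo6.

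Of the 3 FOXO genes of the set (Foxo6 is given further below), Foxo4 was the one that rose from E18.5 to 7 wks. Foxo4 lies on the plus strand at chrX:101254261-101260873. Its level was 41.7, 53.7, 41.5 and 40.5 CPM at E18.5, 69.2, 78.9, 96.2 and 97.9 CPM at 2 wks, and 216, 215, 286 and 283 CPM at 7 wks. The ages did not overlap, and mice 3 and 4 were the higher pair at both later ages. The later step, 1.55 on the log2 scale (SE 0.17, edgeR adjusted p = 4.68e-05), was called with every scaling. The earlier step was 0.95 with TMM (SE 0.17, edgeR adjusted p = 0.000217) but 0.0074 with total counts (edgeR adjusted p = 0.967) and 0.099 with the GC trend removed (edgeR adjusted p = 0.574).

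Foxo1, at chr3:52268337-52350109 on the plus strand, is the FOXO gene whose overexpression is known to shrink mouse muscle. It had 28.5, 21.9, 39.0 and 46.7 CPM at E18.5, 33.2, 24.2, 23.2 and 28.1 CPM at 2 wks, and 33.1, 30.7, 32.9 and 47.6 CPM at 7 wks. All ages overlapped. The changes were -0.33 to 2 wks (SE 0.22, edgeR adjusted p = 0.213), 0.41 after it (SE 0.22, edgeR adjusted p = 0.192) and 0.08 over both (SE 0.22, edgeR adjusted p = 0.752), and with total counts the last was -1.20 (edgeR adjusted p = 0.000338). The median of all tested genes over both steps was -1.37 on that scale.

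Foxo3, at chr10:42181845-42276695 on the minus strand, is known to drive Fbxo32 and autophagy genes in wasting. Its level was 37.5, 37.3, 39.8 and 38.3 CPM at E18.5, 30.2, 24.5, 29.3 and 33.1 CPM at 2 wks, and 28.7, 27.1, 25.1 and 38.1 CPM at 7 wks. The E18.5 mice lay above all 2-wk mice and overlapped only with 7-wk mouse 4. It fell by 0.38 on the log2 scale to 2 wks (SE 0.15, edgeR adjusted p = 0.0325), a call that was lost without E18.5 mouse 3 or 4 or 2-wk mouse 1, 2 or 3 (range -0.44 to -0.30 over the 12 left-out libraries). The fall was larger with the GC trend removed (-1.20, edgeR adjusted p = 5.59e-05) and with total counts (-1.32, edgeR adjusted p = 3.23e-06). From 2 to 7 wks the change was 0.024 (SE 0.15, edgeR adjusted p = 0.922). Over both steps it fell by 0.36 (SE 0.15, edgeR adjusted p = 0.0398), which passed only without E18.5 mouse 1, 2-wk mouse 2 or 7-wk mouse 4 among the 12 left-out libraries (range -0.49 to -0.28).

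Per length, Foxo4 took 61.4% ± 6.52 (SD, n = 4) of the summed level of Foxo1, Foxo3 and Foxo4 in E18.5 mice. It took 79.6% ± 3.81 in 2-wk mice and 90.8% ± 1.39 in 7-wk mice, and the shares did not overlap between ages. Foxo6 was not part of this sum. Foxo1 and Foxo3 ended at 5.02% ± 0.70 and 4.19% ± 0.71, respectively. Within libraries, the log2 ratio of Foxo4 to Foxo3 rose by 1.34 to 2 wks and by 1.53 from 2 to 7 wks, in 16 of 16 pairs each (exact permutation p = 0.029 and adjusted p = 0.0429 each). Foxo1 to Foxo3 differed by 0.11 to 2 wks (exact permutation p = 0.657) and rose by 0.39 from 2 to 7 wks in 16 of 16 pairs (exact permutation p = 0.029, adjusted p = 0.0429).

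**Figure D3:**
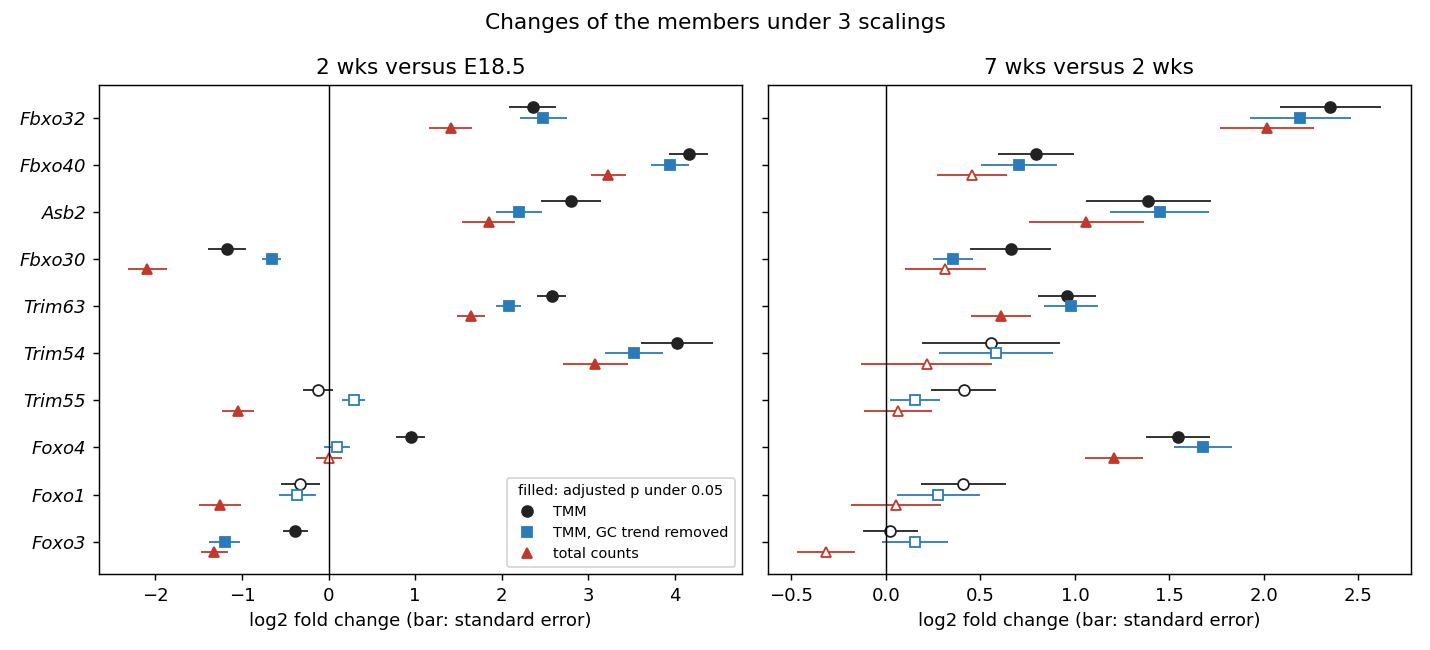
Log2 fold change of the 10 genes (edgeR) from E18.5 to 2 wks (left) and from 2 to 7 wks (right) with TMM scaling, with TMM corrected for GC content, and with total counts; bars are standard errors and filled symbols have an adjusted p under 0.05. Fbxo40, Trim54, Asb2, Trim63 and Fbxo32 rise to 2 wks under all 3, Foxo4 sits at 0.95, 0.099 and 0.0074, and Trim55 lies on both sides of 0.

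On the total-count scale 9 of the 10 genes passed to 2 wks, 5 higher and 4 lower, where 75.1% of all genes passed, 13.2% higher and 61.9% lower. In the second step 4 passed on that scale (Fbxo32, Trim63, Asb2 and Foxo4, all higher), where 32.9% of all genes did, 4.92% higher. Between E18.5 and 7 wks all 10 passed with total counts, 6 higher and 4 lower, where 80.9% of all genes did, 11.9% higher and 69% lower. The steps differed on that scale in 8 of the 10 genes and in 43.7% of all genes. With the GC trend removed, 7 passed to 2 wks (5 higher, 2 lower) against 66.7% of all genes, and 6 passed in the second step against 31.6%. Upper-quartile scaling left 5 of the 10 called in the second step, all higher, where 5188 of 19276 genes passed.

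The order of the 10 genes by level per length (RPKM, exons united per gene) was rearranged by 2 wks. The places and gaps within an age depend on that length, which exceeds the longest transcript unequally. It was 14847 against 7097 bases for Asb2, 3268 against 1945 for Trim63, 6465 against 5389 for Fbxo40 and 5692 against 5489 for Trim54. The order with other lengths is not given here. At E18.5 it ran from Foxo4 (12.5 ± 1.76 RPKM, SD, n = 4), Trim55 (9.08 ± 2.12) and Trim63 (7.83 ± 1.07) down to Trim54 (2.19 ± 1.33) and Fbxo32 (1.32 ± 0.29), and every neighbour in that order overlapped with the next. At 2 wks Fbxo40 (47.8 ± 4.61 RPKM) and Trim63 (46.7 ± 2.95) led and Fbxo30 (2.30 ± 0.045) was last, with gaps free of overlap between Asb2 and Trim55, between Fbxo32 and Foxo3 and between Foxo1 and Fbxo30. At 7 wks Trim63 (90.8 ± 16.2 RPKM), Fbxo40 (83.0 ± 11.9), Foxo4 (70.5 ± 11.3), Trim54 (52.3 ± 22.1), Asb2 (41.5 ± 14.5) and Fbxo32 (34.6 ± 10.9) overlapped with their neighbours. All 6 lay above Trim55 (11.1 ± 1.77), which lay above Foxo1 (3.89 ± 0.84), Fbxo30 (3.64 ± 0.75) and Foxo3 (3.22 ± 0.62).

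Because the fibre markers also rose, each gene was set against their summed CPM in the same library, a description chosen after the values had been seen. The mean log2 marker sum rose by 2.95 in the first step and by 0.061 in the second. Single markers rose to 2 wks by 1.41 (Ttn), 1.79 (Neb), 2.64 (Mylpf), 2.71 (Tnnt3), 3.76 (Acta1) and 3.86 (Ckm). The sign of a small move against the sum therefore depends on the marker. Against it, Asb2 moved by -0.12, Trim63 by -0.37 and Fbxo32 by -0.61 to 2 wks, while Fbxo40 moved by 1.25 and Trim54 by 1.20. From 2 to 7 wks Fbxo32 moved by 2.28, Foxo4 by 1.49, Asb2 by 1.32 and Trim63 by 0.88 against the markers. Foxo1, Foxo3, Trim55 and Fbxo30 moved by -3.23, -3.34, -3.05 and -4.07 to 2 wks, and Foxo4 by -2.01. The part of fibre content in these changes was not tested. Other cell types moved too: the summed fibroblast markers (6 genes, none at 0) ranged from 5866 to 12161 CPM in E18.5 mice, 4443 to 6125 CPM in 2-wk mice and 980 to 4063 CPM in 7-wk mice, and the endothelial markers (6 genes, none at 0) from 328 to 497, 889 to 1064 and 577 to 844 CPM.

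The machinery that the cullin-bound ligases need was measured as a list of 15 genes for the SCF and cullin-5 core, ubiquitin and its early enzymes. To 2 wks 11 rose, 1 fell and 3 did not pass (edgeR, adjusted p under 0.05), with a median log2 change of 0.64. With total counts 4 rose and 6 fell. Of all tested genes 31.5% rose and 34.2% fell to 2 wks, and with total counts 13.2% rose and 61.9% fell. These shares stand beside each list below as well. Among partners, elongin B (Elob) rose by 2.47 to 2 wks (edgeR adjusted p = 0.000244) and kept that direction with total counts. Skp1, the F-box adaptor, rose by 0.47 with TMM but fell by 0.46 with total counts, and elongin C (Eloc) rose by 0.55 but fell by 0.37 with total counts. The ASB scaffold Cul5 rose by 0.54 with TMM and had -0.39 with total counts (edgeR adjusted p = 0.0521), then rose by 0.86. Cul1 had -0.18 (edgeR adjusted p = 0.259) to 2 wks and rose by 0.58 (edgeR adjusted p = 0.00829) after it, which with total counts was 0.23 (edgeR adjusted p = 0.240). The ubiquitin-conjugating enzyme gene Ube2d2a was the 1 that fell (-0.71, or -0.20 and not called with the GC trend removed). In the second step 6 rose and 9 did not pass, where 13.5% of all genes rose and 13.9% fell. With total counts 2 rose in that step, where 4.92% of all genes rose and 5392 of 19276 fell. These values for the second step also stand beside each list below.

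Of 21 other muscle ligases and adaptors, 15 rose, 3 fell and 3 did not pass to 2 wks (median 1.38), and 9 rose, 1 fell and 11 did not pass from 2 to 7 wks (median 0.29). With total counts 12 rose and 7 fell to 2 wks, and 4 rose and 1 fell afterwards. The ASB genes, kin of Asb2, were 9 of the 21, and all 9 rose to 2 wks (8 with total counts, and none fell), led by Asb14 (5.02, edgeR adjusted p = 5.21e-10) and Asb16 (3.66, edgeR adjusted p = 9.98e-09). Asb14 rose again by 1.64, whereas Asb16 had 0.29 (edgeR adjusted p = 0.229). The genes with the largest falls were Nedd4 (-1.32, edgeR adjusted p = 2.60e-05), a HECT ligase, and Cblb (-0.77, edgeR adjusted p = 0.00109), a RING ligase that targets IRS1, and Cblb rose by 0.69 later, which with total counts was 0.34 and not called.

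Upstream of FOXO, 16 genes of the IGF1, insulin and AKT arm were mixed on the TMM scale. To 2 wks 3 rose, 5 fell and 8 did not pass (median -0.33), and from 2 to 7 wks 5 rose and 11 did not pass (median 0.40). With total counts 1 rose and 12 fell and then 4 fell, where 5392 of all 19276 genes fell in that later step. The growth factor gene Igf1 fell by 2.46 (edgeR adjusted p = 6.91e-05) and its receptor Igf1r by 1.37 (edgeR adjusted p = 7.29e-06) to 2 wks. Sgk1, a kinase that like AKT phosphorylates FOXO, rose by 3.29 (edgeR adjusted p = 9.49e-09), and Rptor, the mTORC1 scaffold, by 0.87 (edgeR adjusted p = 0.00193), though Rptor had -0.07 with total counts. Akt1 had 0.58 (edgeR adjusted p = 0.0852) and then -0.58 (edgeR adjusted p = 0.148), and fell by 0.65 to 2 wks with the GC trend removed. Akt2, the main AKT gene of insulin action in muscle, had 0.36 (edgeR adjusted p = 0.206) and rose by 0.74 (edgeR adjusted p = 0.0354) from 2 to 7 wks, or 0.40 and not called with total counts.

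Of 12 FOXO regulators and partners 11 passed the filter. To 2 wks 3 rose and 3 fell (median -0.042), and from 2 to 7 wks 4 rose and 2 fell (median 0.41), with 3 rising and 8 falling and then 2 each way on total counts. The fourth FOXO gene, Foxo6, rose by 4.36 (edgeR adjusted p = 3.70e-07) and then fell by 1.03 (edgeR adjusted p = 0.0238), or 0.52 and not called with the GC trend removed. Smad3, a FOXO partner in myostatin signalling, rose by 1.96 and 0.96. The 14-3-3 gene Ywhaz, whose protein holds phosphorylated FOXO in the cytoplasm, fell by 1.31 (edgeR adjusted p = 5.60e-06) and 0.51 (edgeR adjusted p = 0.0183), and the FOXO deacetylase gene Sirt1 fell by 1.04 to 2 wks. Ppargc1a (PGC-1α), whose protein restrains FOXO3 in muscle, had 0.10 (edgeR adjusted p = 0.778) and then rose by 0.99 (edgeR adjusted p = 0.0287), or 0.65 and not called with total counts.

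Known FOXO targets other than the ligases, 20 genes, rose more often than they fell to 2 wks with TMM. Of these, 14 rose, 3 fell and 3 did not pass (median 1.12), where 31.5% of all genes rose and 34.2% fell. With total counts 6 rose and 8 fell, where 13.2% of all genes rose and 61.9% fell. In the second step 4 rose and 16 did not pass (median 0.47), where 13.5% of all genes rose and 13.9% fell. With total counts 1 rose and 2 fell in that step, where 4.92% of all genes rose and 5392 of 19276 fell. Pdk4, the pyruvate dehydrogenase kinase of fasting, rose by 2.69 (edgeR adjusted p = 0.00158) and the F-box gene Fbxo31 by 2.89 (edgeR adjusted p = 3.05e-06). The cell cycle inhibitor Cdkn1a fell by 1.28 (edgeR adjusted p = 9.54e-05) and Ccng2 by 1.12 (edgeR adjusted p = 0.000117). The 4 that rose from 2 to 7 wks, Bnip3, Gabarapl1, Map1lc3b and Ulk1, are genes of autophagy, were named after their values had been seen, and rose by 0.92, 0.78, 0.71 and 0.79, of which only Gabarapl1 was called with total counts.

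Of 16 genes for ligase substrates and titin kinase partners, 8 rose and 8 did not pass to 2 wks (median 0.96), and 4 rose, 3 fell and 9 did not pass afterwards (median 0.0035). With total counts 6 rose and 7 fell, and then 1 rose and 6 fell, where 5392 of all 19276 genes fell in that later step. The largest rises were those of fast myosin-binding protein C, Mybpc2 (5.18, edgeR adjusted p = 7.12e-09), and skeletal actin, Acta1 (3.76, edgeR adjusted p = 4.12e-06), which is also one of the fibre markers. Eif3f, a substrate of atrogin-1, had 0.44 (edgeR adjusted p = 0.0574) and 0.27 (edgeR adjusted p = 0.309), and Irs1, a substrate of FBXO40 and CBLB, had -0.11 (edgeR adjusted p = 0.696) and -0.32 (edgeR adjusted p = 0.322). With total counts the values to 2 wks were -0.48 for Eif3f and -1.02 for Irs1, both called, beside a median of all genes of -1.02.

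**Figure D4:**
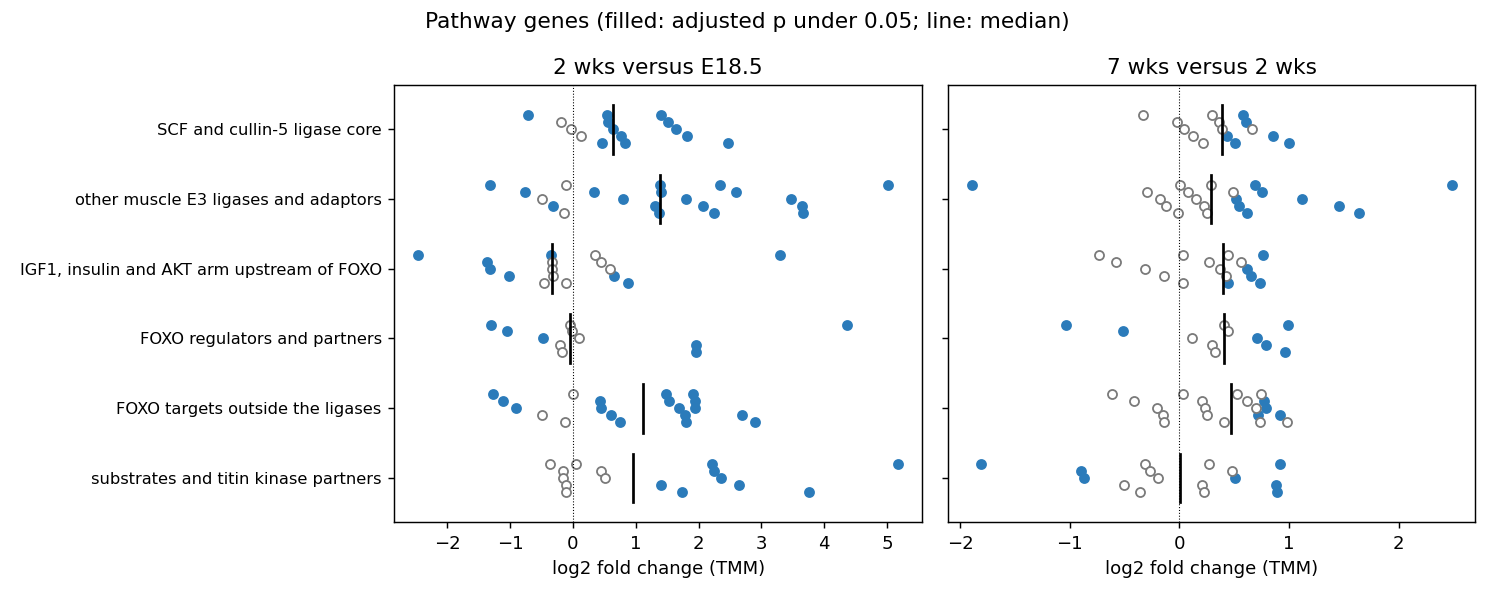
Log2 fold change (TMM scaling, edgeR) of the genes of 6 lists around the ligases and FOXO, from E18.5 to 2 wks (left) and from 2 to 7 wks (right), with filled points for an adjusted p under 0.05 and a bar for each list's median. The medians to 2 wks run from -0.33 for the IGF1, insulin and AKT arm to 1.38 for the other muscle ligases. The list of 15 core genes has 11 up and 1 down with TMM, where 31.5% of all genes rose and 34.2% fell. With total counts it has 4 up and 6 down, where 13.2% of all genes rose and 61.9% fell.

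The genes most like each of the 10 were sought among the 8948 whose log2 CPM averaged 3 or more, by the root mean square (RMS) difference of centred log2 CPM over the 12 libraries. Trim55 was closest to Wdr35 (0.10) and Srp54c (0.12), Fbxo30 to Xk (0.10) and Fam135a (0.12), and Foxo3 to Tshz2 (0.14) and Wdr48 (0.15). Trim63 was closest to Gpt2 (0.18) and Tacc2 (0.19), Foxo4 to Rnf114 (0.19) and Uaca (0.20), Asb2 to Dusp13b (0.20) and Uckl1os (0.26), and Foxo1 to Aasdh (0.21) and Slc25a51 (0.23). Trim54 was closest to Tbx1 (0.23) and Ptp4a3 (0.24), and Fbxo40 to Ano5 (0.29) and Phkg1 (0.30). Fbxo32 had the largest RMS differences to its neighbours, Tigar (0.43) and Gm31166 (0.45). The RMS difference is not scaled to how much a gene varied, so its size does not rank closeness across the 10. The SD of log2 CPM over the libraries was 1.94 for Fbxo32 and 2.20 for Fbxo40. It was 0.24 for Foxo3, 0.27 for Trim55, 0.35 for Foxo1 and 0.53 for Fbxo30. Within the set, Fbxo32 was nearer to Asb2 (0.64) and Trim63 (0.71) than to Fbxo40 (0.93), and Trim63 was nearest to Asb2 (0.48).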

How the data were processed

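RNA from the TA muscle of 12 mice was made into poly(A) libraries with a stranded kit and sequenced as 100-base read pairs. The deposited table holds counts of reads per Ensembl gene, made by the authors; their processing notes name bcl2fastq 2.17.1.14, cutadapt 1.10, STAR 2.5.3a, HTSeq 0.6.1p1 and mm10, whereas the study's methods name GRCm39, and the annotation release and strand setting are not given in the sources used here. The table has no coordinates, so gene and promoter positions are those of RefSeq on GRCm38.p6. GENCODE vM39 named 51477 of 55450 genes, and the 3973 without a name held 0.0394% of counts.

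Genes were filtered with filterByExpr (19276 kept, 36174 removed), scaled by TMM and fitted in edgeR 4.0.16 by its quasi-likelihood test over all 12 libraries with age as the factor, and p-values were adjusted by Benjamini-Hochberg over all tested genes, with calls at 0.05. Standard errors are the fit's log2 change divided by the root of its F statistic. Alternatives used total counts, upper quartiles, other filters, TMM without the 20 most abundant and the mitochondrial genes, DESeq2 1.42.0, a replicate block, the trend over GC content removed by lowess (span 0.3), changes beyond 2-fold, and leaving out each library. Per-length values used the united exons of each gene. The 24 within-library ratios were tested by exact two-sided permutation of mice, with 70 regroupings and p = 0.029 as the smallest p.

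Between ages, same-number correlations of deviations ran from -0.283 to 0.514. Mice of different numbers were not compared, so whether replicate numbers share a batch across ages was not tested. The main fit did not use the numbers. Simulated counts for E18.5 against 2 weeks gave back 66 of 200 genes changed 2-fold with 2 false calls (18526 genes), and 200 of 200 changed 4-fold with 10 false calls (18469 genes). The simulation gave all genes a common spread and changed only those 200. In the data 65.7% of tested genes passed to 2 weeks, so these rates do not carry over to the 10 genes. The genes, lists and markers were chosen with earlier results of these data known. Named besides the 10 genes were the 2 largest called rises and falls to 2 weeks in each list, direct partners of the ligases and FOXO, and the 2 genes most like each of the 10. Some genes of the lists are not reported here by name.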

Additional observations from a re-analysis of the deposited data

Results flagged for a closer look

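In 4 of 30 sets of 4 mice (10 genes at 3 ages) 1 mouse stood apart from the other 3 by Dixon's test, where chance gives 1.5 sets. Trim54 had 23.8 CPM in E18.5 mouse 2 against 7.85 to 9.40 CPM in the others of that age, and Foxo4 had 53.7 CPM in the same mouse against 40.5 to 41.7 CPM. That mouse also had the highest fibre marker sum of its age. Foxo1 had 47.6 CPM in 7-wk mouse 4 against 30.7 to 33.1 CPM, and Trim55 had 96.5 CPM in 2-wk mouse 2 against 82.1 to 83.2 CPM.

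The log2 change from 2 to 7 wks differed from that between E18.5 and 2 wks, in edgeR's test of the difference with Benjamini-Hochberg adjustment over all genes, for 4 of the 10 genes, where 38.4% of all genes did. The later minus the earlier change was -3.47 for Trim54, -3.36 for Fbxo40, -1.62 for Trim63 and 1.83 for Fbxo30. With the alternatives run, each of the 4 differences had the same sign and passed the threshold.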

How the results depend on the processing

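The rises of Fbxo32, Fbxo40, Asb2, Trim63 and Trim54 to 2 wks, and those of Fbxo32 and Foxo4 from 2 to 7 wks, kept their direction and their call under all alternatives run, and Foxo4 to 2 wks lost its call with total counts (0.0074), with the GC trend removed (0.099), with the block and GC trend together (0.10) and in the test beyond 2-fold. Changes near 0 turned sign. Foxo3 from 2 to 7 wks was -0.32 with total counts, -0.081 with upper quartiles, -0.017 with at least 10 counts in every library, -0.0094 with only the 8 libraries compared, and -0.12 to 0.098 with 1 library left out. Foxo1 from E18.5 to 7 wks was -1.20, -0.16, -0.080 and -0.011 under the same 4, -0.083 with the GC trend removed, -0.068 with the replicate block and the GC trend removed, and -0.077 to 0.27 with 1 library left out. Trim55 was -0.98 from E18.5 to 7 wks with total counts and called, and 0.44 and 0.46, both called, with the GC trend removed without and with the block; to 2 wks it was 0.29 with the GC trend removed, 0.30 and called with the block besides (edgeR adjusted p = 0.0361), and -0.22 to 0.039 with 1 library left out; and its difference of steps was -0.14 and -0.15 under those GC settings. The difference of steps of Fbxo32 was 0.61 with total counts, 0.038 with upper quartiles, 0.047 with DESeq2, 0.034 with no filter, 0.080 with at least 10 counts, and -0.36 to 0.35 with 1 library left out. The ratio of Trim55 to Trim54 from 2 to 7 wks was 0.010 as a difference of linear ratios. The causes of these shifts were not tested. On the total-count scale the median of all tested genes was -1.37 from E18.5 to 7 wks.

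Beyond 2-fold, 5507, 561, 7574 and 2463 of all genes were called to 2 wks, from 2 to 7 wks, from E18.5 to 7 wks and for the difference of steps, and 5 and 2 of the 10 genes in the first 2. With total counts 8 of the 10 were called for the difference of steps. With total counts, calls in the lists numbered 11 for FOXO regulators, 13 for the IGF1, insulin and AKT arm and 13 for substrates to 2 wks. From 2 to 7 wks they numbered 2 for the ligase core and 5 for other ligases. On that scale 75.1% of all genes were called to 2 wks and 32.9% from 2 to 7 wks. Genes called from 2 to 7 wks ranged from 3472 (without 2-wk mouse 1) to 6145 with 1 library left out, against 5296. All-gene calls split into 2550 higher and 11923 lower to 2 wks with total counts, against 6074 and 6594 with TMM, and into 948 and 5392 against 2609 and 2687 afterwards. The replicate block called 12470, 5149, 13611 and 7287 genes and 8, 6, 8 and 5 of the 10, the added call being the Asb2 difference of steps (-1.42). Fits of only the 8 libraries compared give no difference of steps. The 10 genes had 941 counts or more in each library. The simulation, with a common spread for all genes, gives no recovery rate for these 10.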

Other observations

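Other cell types in the same muscles moved along with age, in edgeR's test with Benjamini-Hochberg adjustment. Of 5 satellite cell markers 3 fell and none rose to 2 wks, and their summed level ranged from 64.7 to 107 CPM at E18.5, 48.4 to 57.7 CPM at 2 wks and 41.9 to 45.6 CPM at 7 wks. All 6 adipocyte markers fell to 2 wks, from 13.1 to 447 CPM at E18.5, a wide range led by mouse 3, to 3.07 to 9.04 CPM at 2 wks and 3.36 to 7.00 CPM at 7 wks. Smooth muscle and pericyte markers (5 genes) summed to 400 to 589, 1031 to 1613 and 876 to 1103 CPM, and Schwann cell markers (5 genes) to 146 to 245, 133 to 628 and 100.2 to 152 CPM, with the 628 CPM in 2-wk mouse 1. Leukocyte markers (6 genes) summed to 86.9 to 131, 64.9 to 85.9 and 34.0 to 83.5 CPM, red blood cell markers (6 genes) to 241 to 1025, 146 to 755 and 91.9 to 130 CPM, and epidermal markers (5 genes, 1 of them at 0 in every 2-wk mouse) to 2.02 to 30.1, 2.82 to 4.09 and 1.69 to 7.81 CPM. The part of these cells in the levels of the ligase and FOXO genes was not tested.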
